A study of Mus musculus with 2 samples.

Results

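Kinesins, the motor proteins that use ATP to move along or remodel microtubules, were followed through single-cell transcriptomes of mouse neural stem cells. Every gene named Kif plus a digit, together with Kifc1, Kifc2 and Kifc3, was taken if it had at least 100 UMIs (unique molecular identifiers, each a counted transcript) over both deposited matrices. Of 27998 genes, 42 symbols fitted the name rule and 34 reached that count. 33 of the 34 encode motors: 12 mitotic kinesins, 15 transport kinesins and 6 others. The remaining member, Kif1bp, encodes a kinesin binding protein without a motor and was kept apart. The 8 symbols under the limit were Kif19a with 42 UMIs, Kif26b with 40, Kif6 with 32, Kif9 with 26, Kif27 with 18, and Kif2b, Kif12 and the antisense transcript Kif16bos with no UMI. The members just inside the limit were Kif26a with 102 UMIs and Kifc2 with 124.

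Primary neural stem cells had been prepared from C57BL/6 mice, out of the subventricular zone along the lateral ventricles, a niche that produces new neurons in the adult brain. The young library came from mice 2 months old and the aged library from mice 15 to 18 months old, with tissue of 5 mice pooled before dissociation for each library. The cells were held in proliferation medium before droplet capture with the 10x Genomics 3′ v3 chemistry, so the values describe cultured cells. With 1 library per age, no test between ages was possible, and all intervals below are 95% intervals for counting error only.

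Mitotic kinesins build and focus the spindle, move and align chromosomes, and organize the midzone where the daughter cells separate. Transport kinesins carry vesicles, mitochondria and cilium components through the cytoplasm of dividing and resting cells alike. Transcription of many mitotic genes is held low in resting cells and early in the cycle and released towards G2 and M, and their promoters often carry a CHR element, a short site bound by the DREAM and MuvB complexes, together with CCAAT boxes bound by NF-Y.

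Promoters of 27 of the 34 members were matched in the RefSeq table (build GRCm38.p6), and the stretches with CHR-type or CCAAT letters are shown for members on which the results turn. Bases are printed 5′ to 3′ on the gene's strand, and the capitals mark the CHR hexamer TTTGAA, its variant spelled TTCGAA, and the box CCAAT, each searched on both strands, so that a match on the opposite strand reads TTCAAA for the hexamer and ATTGG for the box. No searched letter string overlapped another in these stretches. The stretches end at or before the annotated RefSeq start of Kif11 (chr19:37376282-37376381, plus strand), Kif15 (chr9:122951050-122951079, plus strand), Kif22 (chr7:127042422-127042451, minus strand), Kifc1 (chr17:33890664-33890733, minus strand) and the transport gene Kif1b (chr4:149307734-149307833, minus strand).
Kif11: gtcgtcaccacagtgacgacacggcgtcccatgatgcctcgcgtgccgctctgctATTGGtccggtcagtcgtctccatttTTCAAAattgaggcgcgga
Kif15: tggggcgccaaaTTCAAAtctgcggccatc
Kif22: cggggccccggtaaTTCAAAagagagaagc
Kifc1: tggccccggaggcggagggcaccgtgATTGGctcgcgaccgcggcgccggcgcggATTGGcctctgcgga
Kif1b: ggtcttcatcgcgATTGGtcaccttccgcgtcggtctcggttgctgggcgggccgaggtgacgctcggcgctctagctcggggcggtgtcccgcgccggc
Kif11 held opposite-strand TTTGAA with its leading base 19 bases before the start and an opposite-strand CCAAT at 45 bases. In Kif15 the same hexamer lay 19 bases before the RefSeq start, and in Kif22 it lay at 17 bases. GENCODE starts both genes further upstream, Kif15 at 122951046 and Kif22 at 127042471. By that annotation both printed stretches lie within the gene and not before it. Kifc1 held no match to either hexamer in the 250 bases before its start, but carried opposite-strand CCAAT at 74 and 45 bases.

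Within 250 bases before the start, 5 of 11 matched mitotic kinesin promoters (45.5%) held a CHR hexamer in either spelling, against 1 of 12 promoters of transport kinesins and 17.1% of all 32851 promoters. CCAAT was present in 7 of the 11 (63.6%), in 4 of the 12 transport promoters and in 33.8% of all promoters. The 11 mitotic promoters belong to 11 genes, but the 12 transport promoters to 10, and Kif1b gave 2 of the 4 with CCAAT. Within 100 bases of the RefSeq start, 3 of the 11 held a hexamer, against 1 of 12 transport promoters and 6.13% of all promoters. These were Kif11, Kif15 and Kif22, and in Kif15 and Kif22 the hexamer lies past the GENCODE start. Of 16 promoters of 13 mitotic kinesin partners, 3 (18.8%) held a hexamer, 1 (6.25%) held it within 100 bases, and 10 (62.5%) held CCAAT. The partners were thus near all promoters for the hexamer. These matches describe letters and not bound sites.

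The young matrix held 5151 barcodes and 97774963 UMIs, and the aged matrix 4731 barcodes and 101666604 UMIs. After removal of barcodes with fewer than 1000 genes or over 10% mitochondrial UMIs and of doublet calls, 2641 young and 2531 aged cells remained, with medians of 22962 and 23758 UMIs per cell. The matrices shared 4 barcodes, none of them among the kept cells. The doublet caller marked 0.340% and 0.237% of the cells that passed the filters, too few to be taken as working, so doublets may remain. Levels are given as CPM, UMIs of a gene per 1000000 UMIs of the cells summed. Summed markers of endothelial, mural, mature oligodendrocyte, ependymal and microglial cells came to 0.929 to 21.5 CPM per list and library. Astrocyte or quiescent stem cell markers summed to 1591 CPM young and 1833 CPM aged, and oligodendrocyte precursor markers to 1730 and 1459 CPM. Mature neuron markers summed to 447 and 446 CPM, with 2 of 9 at 10 CPM or more in either library, and neuroblast markers to 112 and 103 CPM, with 2 of 13.

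Cells were clustered without any kinesin, kinesin partner or dynein gene, so that these genes did not define the 12 clusters in which they are described. Cluster 5 (217 young and 268 aged cells) had the highest level of a G2/M list that holds no kinesin, with 27 of its 27 genes raised at least 1.5-fold. Cluster 11 (161 and 110 cells) had 26 of 27 raised, and cluster 10 (178 and 161) 13 of 27 beside 12 of 13 S phase histones. Cluster 2 (301 and 277) had 9 of 27 raised. Its leading genes, in that list or not, were Cep89, Knstrn, Cdkn3, Cenpa and Ccnb2. Clusters 3, 1 and 8 carried replication genes, with histones in 1 and 8. Cluster 9 (199 and 151) was astrocyte or quiescent stem cell-like with 10 of 18 markers raised, and cluster 12 (68 and 135) carried 11 of 11 stress response genes. Clusters 4 and 6 stayed unnamed, as did cluster 7, whose cells had medians of 2465 and 2434 UMIs and which was left out of the counts of highest clusters below.

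Mitotic kinesins were high in the G2/M clusters and low in clusters 6, 9 and 12, whereas transport kinesins were present in every cluster. The 12 mitotic kinesins summed to 1929 CPM in cluster 5 and 582 CPM in all other young cells, a 3.32-fold difference (3.25 to 3.39). In the aged library the sums were 1941 and 562 CPM, a 3.45-fold difference (3.39 to 3.52). 12 of 12 mitotic kinesins were at least 2-fold higher in cluster 5 in each library, where 2.30% of 8401 young genes and 2.33% of 8402 aged genes were. The median log2 difference of the mitotic kinesins was 1.69 young and 1.78 aged, and that of all genes compared was -0.01 and -0.02.

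The 15 transport kinesins summed to 1143 CPM in cluster 5 against 1009 CPM in other young cells, and to 1217 against 1079 CPM in the aged library, both 1.13-fold (1.11 to 1.16 and 1.11 to 1.15). None of the 9 young or 10 aged transport kinesins with at least 10 CPM on either side was 2-fold higher. Among all genes 2.30% young and 2.33% aged were, so this count does not set transport kinesins apart from genes in general. Median log2 differences of the transport kinesins were 0.12 and 0.05. Over the 12 clusters the transport sum ran from 918 to 1198 CPM young and from 950 to 1217 CPM aged, while the mitotic sum ran from 35.6 to 1929 and from 35.3 to 1941 CPM.

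**Figure D1:**
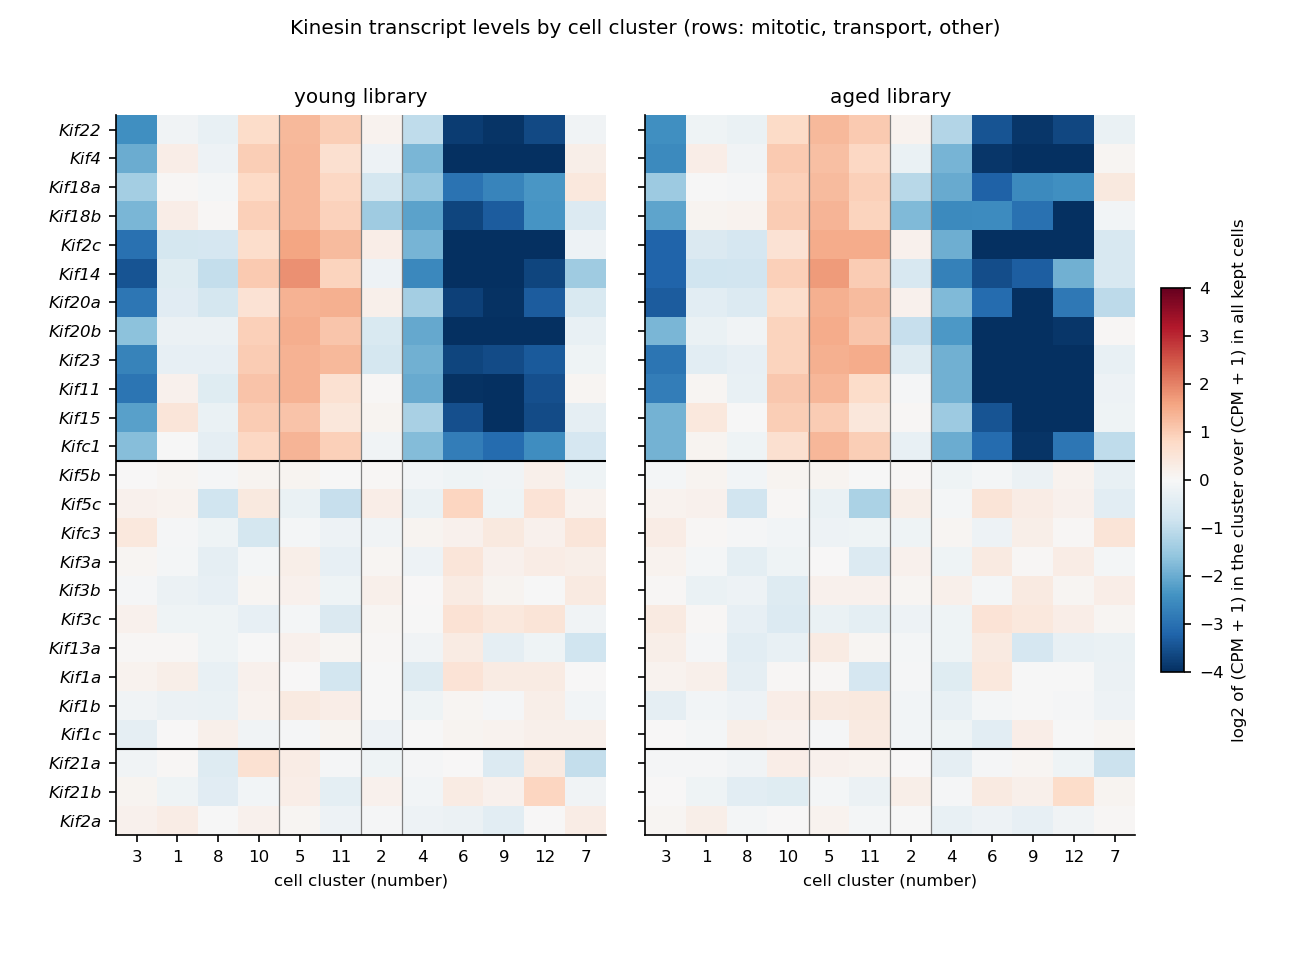
Level of each motor with at least 10 CPM in either library, by cell cluster (columns, by number) in the young and aged library; colour is the log2 of CPM + 1 in the cluster over that in all kept cells, and horizontal lines part mitotic, transport and other kinesins. The mitotic rows are red in clusters 10, 5 and 11 and deep blue in clusters 6, 9 and 12, while the transport rows stay pale.

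Among the spindle kinesins, Kif11, the plus-end-directed motor of the Eg5 type that pushes spindle poles apart (chr19:37376403-37421859, plus strand), stood at 390 CPM in cluster 5 and 3.44 CPM in cluster 9 of the young library. In the aged library it stood at 394 and 5.48 CPM. The libraries thus gave the same order, with intermediate values of 226 and 260 CPM in cluster 11 and 165 and 164 CPM in cluster 1. Kif15, a motor that backs up Kif11 on spindle microtubules, was at 136 CPM young and 123 CPM aged in cluster 5, and at 2.01 and 2.06 CPM in cluster 9. Kifc1, a minus-end-directed motor that focuses spindle poles, was at 82.8 and 76.1 CPM in cluster 5 and at 2.87 and 1.03 CPM in cluster 9. The fold of cluster 5 over other cells was 3.35 young and 3.36 aged for Kif11, 2.61 and 2.45 for Kif15, and 3.27 and 3.51 for Kifc1. The value of Kifc1 is uncertain because Kifc5b, a near-identical copy listed as a gene of its own, took 414 young and 447 aged UMIs beside 1873 and 1778 for Kifc1.

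The chromokinesins, which ride on chromosome arms, had the same shape. Kif4 was at 210 CPM young and 203 CPM aged in cluster 5 and at 2.58 and 2.06 CPM in cluster 9. Kif22 was at 197 and 199 CPM in cluster 5 and at 4.31 and 4.46 CPM in cluster 9. Cluster 5 exceeded other cells 3.15-fold and 2.93-fold for Kif4 and 3.06-fold and 3.29-fold for Kif22.

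Of the kinesins that shorten microtubules or align chromosomes, Kif2c, the centromeric depolymerase also called MCAK, was at 143 CPM young and 134 CPM aged in cluster 5 and at 1.15 and 1.37 CPM in cluster 9. Kif18a, which damps chromosome oscillation at the metaphase plate, was at 142 and 150 CPM in cluster 5 and kept 8.32 and 9.60 CPM in cluster 9. Kif18b, a plus-end motor that shortens astral microtubules, was at 39.1 and 40.4 CPM in cluster 5 and at 0.574 and 1.03 CPM in cluster 9. Kif18a had the smallest range of the 12 over clusters, with its highest cluster 22.4-fold above its lowest in the young and 26.5-fold in the aged library. Cluster 5 exceeded other cells 4.05-fold and 4.13-fold for Kif2c, 3.11-fold and 3.24-fold for Kif18a, and 3.31-fold and 3.70-fold for Kif18b.

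The midzone and cytokinesis kinesins included the motor with the largest fold. Kif14, which recruits citron kinase to the midbody, was at 75.5 CPM young and 75.3 CPM aged in cluster 5, against 13.8 and 13.5 CPM in other cells, a 5.47-fold and 5.57-fold difference. Kif23, a subunit of centralspindlin, was at 156 and 170 CPM in cluster 5, and at 147 and 177 CPM in cluster 11. Kif20a, which brings Aurora B to the midzone, was at 99.8 and 99.9 CPM in cluster 5 and at 101 and 89.1 CPM in cluster 11. For these motors clusters 5 and 11 were close in both libraries. Kif20b, which acts in abscission, was at 257 and 277 CPM in cluster 5 and at 4.88 and 4.80 CPM in cluster 9. Cluster 5 exceeded other cells 3.33-fold and 3.74-fold for Kif23, 3.42-fold and 3.90-fold for Kif20a, and 3.49-fold and 3.99-fold for Kif20b.

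Over the 11 clusters without cluster 7, the highest level fell in cluster 5 for 11 of 12 mitotic kinesins in the young library and 10 of 12 in the aged library. The share of all genes highest in cluster 5 was 8.71% young and 8.35% aged. The exceptions were highest in cluster 11: Kif20a in the young, and Kif2c and Kif23 in the aged library. The median fold between a gene's highest and lowest cluster was 69.1 young and 74.3 aged for mitotic kinesins, with clusters at or under 3 UMIs set to that count. For the transport kinesins with at least 10 CPM it was 1.62 and 1.88, close to the 1.76 and 1.74 of all genes at that level.

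To compare cells at equal depth, each was thinned to 5000 UMIs, which left out 343 young and 263 aged shallower cells. A cell of cluster 5 then held a UMI of 5.94 ± 2.00 of the 12 mitotic kinesins in the young library (SD over 206 cells) and 5.99 ± 1.78 in the aged library (261 cells). In cluster 9 the means were 0.156 over 135 young and 0.115 over 113 aged cells, and 85.2% and 89.4% of them held none. Thinning had left out 64 of 199 young and 38 of 151 aged cells of cluster 9, against 11 and 7 of cluster 5. Transport kinesins gave means from 2.48 to 3.21 of 15 in every cluster other than cluster 7. Kif11 had a UMI in 82.0% of thinned young cells of cluster 5 (76.1 to 87.0, exact binomial) and 82.8% of aged ones (77.6 to 87.1). In cluster 9, taken as the background of cells with few G2/M transcripts, the shares were 1.48% and 1.77%. Without thinning, the shares were 99.5% and 98.9% in cluster 5 and 5.53% and 9.27% in cluster 9, at the unequal median depths of 30821 and 33156 against 21712 and 23246 UMIs.

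The same contrast appeared along a graded scale that needs no clusters. Cells of each library were placed in 10 equal bins by the share of their UMIs in the kinesin-free G2/M list. From the lowest to the highest bin, the summed mitotic kinesins went from 37.5 to 1991 CPM in the young and from 35.7 to 2038 CPM in the aged library, higher in each bin than in the bin before. Transport kinesins stayed between 929 and 1141 CPM young and between 994 and 1214 CPM aged, with the lowest values in bins 4 and 3 and the highest in bin 10. The other kinesins stayed between 172 and 192 CPM young and between 183 and 201 CPM aged. Among single motors, Kif11 went from 3.73 to 399 CPM young and from 4.35 to 407 CPM aged, while Kif5b ranged from 458 to 536 CPM and from 449 to 547 CPM. Median depth per bin ran from 20224 to 28009 UMIs young and from 20595 to 30755 UMIs aged, highest in bin 10. Its part in these levels was not tested.

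**Figure D2:**
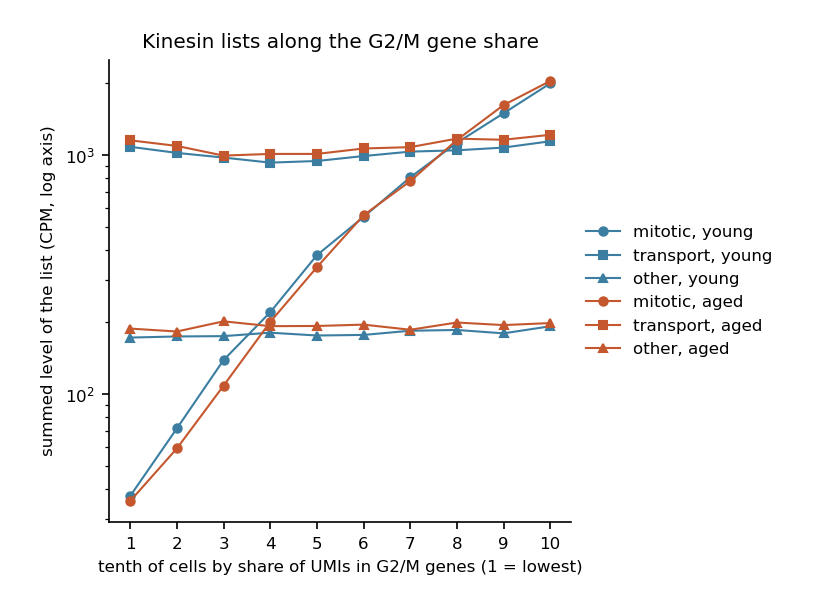
Summed CPM (log axis) of the mitotic, transport and other kinesins in 10 equal bins of cells ordered by their share of UMIs in a G2/M list without kinesins, for each library. The mitotic lines climb from 37.5 and 35.7 CPM to 1991 and 2038 CPM while the transport and other lines stay level.

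The mitotic kinesins did not share 1 profile along the cycle. The clusters set side by side here were chosen after their genes were seen. In cluster 1, which carries S phase histones and replication genes, Kif15 already stood at 63.6% of its cluster 5 level in the young (57.4 to 70.4) and 66.9% in the aged library (60.8 to 73.5). Kif14 stood there at 19.0% (15.3 to 23.5) and 16.6% (13.5 to 20.3), and Kif2c at 20.3% and 23.5%. The intervals of Kif15 lay above those of Kif14 and Kif2c in both libraries. In the aged library too the other 9 lay between, from 26.7% for Kif20a to 47.1% for Kif4 in the young library. In cluster 10, Kif15 reached 91.9% and 98.7% of its cluster 5 level and Kif11 83.2% and 83.4%, while Kif2c reached 53.9% and 52.9%.

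Cluster 2 kept 53.2% young and 52.3% aged of the cluster 5 level of the G2/M list, but only 34.4% and 32.7% of that of the mitotic kinesins. Kif15 was again highest, at 48.4% and 51.4%, and Kif18b lowest, at 12.6% (8.0 to 19.1) and 9.3% (5.6 to 14.5). Kif22 and Kif20a followed Kif15 with 44.6% and 44.8%, and 43.1% and 41.4%. Kif18a, Kif20b, Kif14 and Kif23 lay between 18.4% and 25.9%. Kif18b and Kif18a, which were at 45.9% and 41.5% of their cluster 5 levels in the young cluster 1, were thus lower in cluster 2, whereas Kif2c and Kif20a were higher in cluster 2 than in cluster 1 in both libraries. Median depth was lower in cluster 2, 0.732 and 0.806 of the library median, than in cluster 5, 1.34 and 1.40, and its part in these percentages was not tested.

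Clusters 5 and 11, both rich in G2/M transcripts, differed in which mitotic kinesins they held. In cluster 11, 8 of 12 young and 9 of 12 aged were at least 2-fold above other cells, where 1.87% of young and 2.74% of aged genes were. Cluster 11 had 93.9% and 104% of the cluster 5 level of Kif23, 101% and 89.2% of Kif20a, and 81.1% and 100.3% of Kif2c. It had 58.0% and 66.0% of the level of Kif11, 62.2% and 68.4% of Kif15, and 51.7% and 61.6% of Kif14. Cluster 11 also carried the astrocyte marker Gja1 among its leading genes and 4 of 18 astrocyte or quiescent stem cell markers raised. The same 4 markers (Gja1, Id3, S1pr1 and Slc6a11) were raised in clusters 4 and 8, and also in cluster 9.

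**Figure D3:**
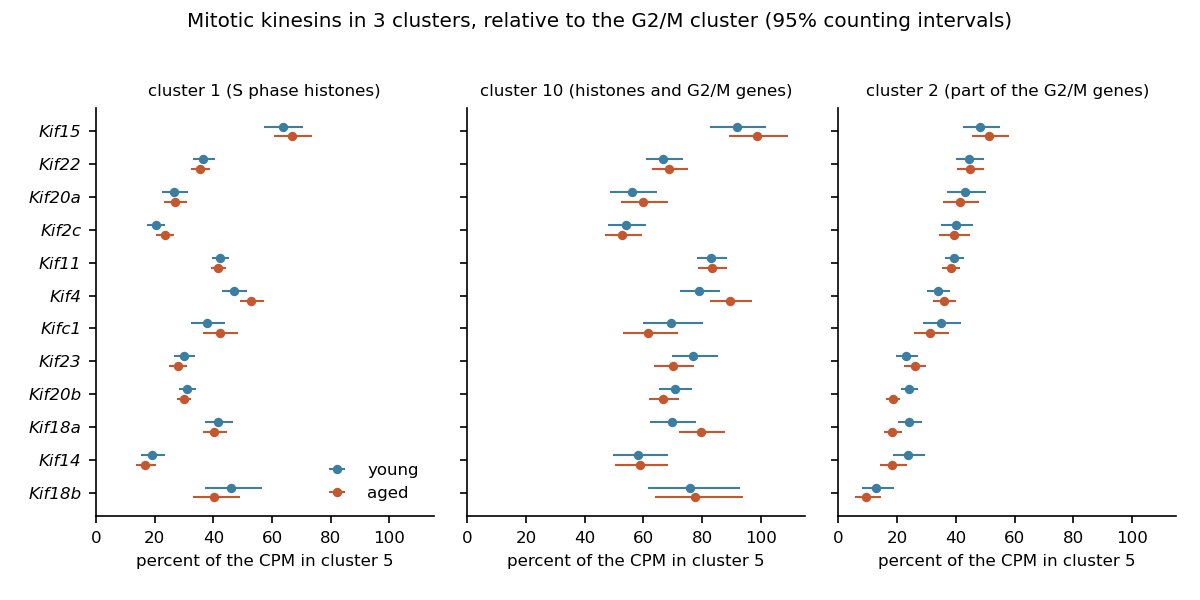
Level of each mitotic kinesin in clusters 1, 10 and 2 as a percent of its CPM in cluster 5, with 95% counting intervals, for the young and aged library. Kif15 lies furthest right in all 3 panels (63.6% and 66.9% in cluster 1), Kif14 and Kif2c lie low in cluster 1, and Kif18b is lowest in cluster 2.

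Partners of the mitotic kinesins had the same distribution over cells. 15 of 16 were at least 2-fold higher in cluster 5 in each library, beside 2.30% of all young and 2.33% of all aged genes. Among the 15 were the Kif4 partner Prc1, the Kif11 targeting factor Tpx2, the centralspindlin subunit Racgap1 and the kinase genes Aurka, Aurkb and Plk1. Prc1 was at 986 CPM in young cluster 5 against 190 CPM in other cells, a 5.19-fold difference, and at 975 against 192 CPM in the aged library, a 5.09-fold difference. Cenpe, itself a kinesin (kinesin-7) outside the name rule, was at 677 against 164 CPM young and 711 against 150 CPM aged. Rhoa, the GTPase that Ect2 switches on, was the exception at 335 against 355 CPM young and 341 against 362 CPM aged. Of the dynein and dynactin list, 1 of 20 compared genes was 2-fold higher in each library, which does not set the list apart from all genes. It was Nde1, a dynein regulator at kinetochores and the nuclear envelope, at 140 against 52.1 CPM young and 147 against 45.8 CPM aged.

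Transport kinesins differed among clusters by less, and with a pattern of their own. Kif5b, the ubiquitous kinesin-1 heavy chain, ranged from 446 to 572 CPM over the 11 clusters young and from 432 to 555 CPM aged. The neuronal kinesin-1 chain Kif5c was highest in cluster 6, at 16.7 CPM young and 16.0 CPM aged, and lowest in cluster 11, at 4.18 and 3.91 CPM. The highest cluster was 4.0-fold and 4.08-fold above the lowest, the widest range of the transport kinesins with at least 10 CPM in either library. The third kinesin-1 chain, Kif5a, had only 67 young and 85 aged UMIs in kept cells.

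In cluster 6, led by Mxd4 and Dlgap1, 12 of 12 mitotic kinesins were at least 2-fold lower than in other cells in each library, where 5.75% of young and 5.46% of aged genes were. They summed to 40.1 and 45.4 CPM there. Over both libraries this cluster also had oligodendrocyte precursor markers at 2391 CPM against 1526 CPM in other cells. Of these, 3 of 10 were raised at least 1.5-fold (Cspg4, Olig1 and Lhfpl3, the last among its 10 leading genes). The same 3 were raised in cluster 3, where the list stood at 2207 against 1523 CPM, so this trait was not particular to cluster 6. Of 13 neuroblast markers, 2 were raised in cluster 6, Tubb3 and Nrxn3. The part of these markers' cells in the kinesin levels was not tested. Kif1a, Kif3a, Kif3c and Kif5c were above the other cells in cluster 6 in both libraries. Kif1a, the kinesin-3 carrier of synaptic vesicle precursors, was at 96.1 CPM against 63.7 CPM young and 102 against 73.2 CPM aged, 1.51-fold (1.36 to 1.67) and 1.39-fold (1.26 to 1.53). Kif3a and Kif3c, subunits of kinesin-2, were 1.46-fold and 1.56-fold higher in the young library and 1.32-fold and 1.54-fold in the aged library. Kif5c was 2.04-fold higher young (1.57 to 2.63) and 1.54-fold higher aged (1.20 to 1.96). It was the only transport kinesin past 2-fold, in the young library alone, where 2.05% of 8552 genes were, against 0.960% of aged genes. Of 10 compared transport kinesins, 9 were higher in cluster 6 in the young library, where 51.3% of all compared genes were, and 5 in the aged library, where 51.8% were. Kif3b, the usual partner of Kif3a, was at 34.4 against 26.9 CPM young and at 23.4 against 24.95 CPM aged, opposite in direction, with the aged interval (0.77 to 1.14) spanning 1.

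Low values of the same motors lay in clusters 11, 8 and 4. Kif1a was at 39.2 CPM young and 47.2 CPM aged in cluster 11, 0.57-fold and 0.61-fold of other cells, and at 46.0 and 54.2 CPM in cluster 4. Kif3a was at 65.7 and 61.4 CPM in cluster 11 and at 64.1 and 68.5 CPM in cluster 8. Kif5c was at 4.59 and 5.87 CPM in cluster 8. Kif1b (chr4:149176319-149307693, minus strand) is a kinesin-3 carrier of mitochondria and vesicles. It was 1.33-fold higher in cluster 5 in the young (1.26 to 1.39) and 1.34-fold in the aged library (1.29 to 1.39). In cluster 11, where Kif1a, Kif3a and Kif5c were low, Kif1b was 1.23-fold and 1.35-fold higher. Its own lowest level lay in cluster 8 in the young library, at 191 CPM, and in cluster 3 in the aged library, at 219 CPM.

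**Figure D4:**
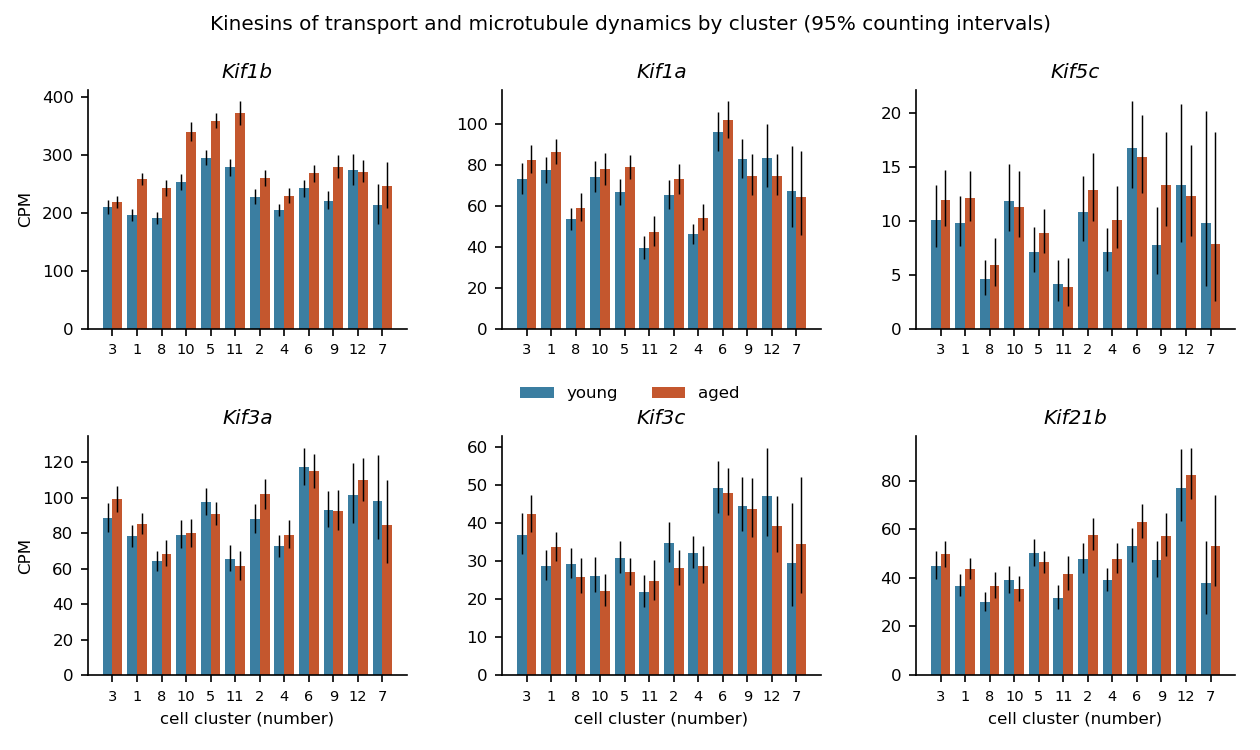
CPM of Kif1b, Kif1a, Kif5c, Kif3a, Kif3c and Kif21b in each cell cluster (by number) of the young and aged library, with 95% counting intervals. Kif1b is highest in cluster 5 young and 11 aged, Kif1a, Kif5c, Kif3a and Kif3c in cluster 6, and Kif21b in cluster 12.

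The remaining kinesin-3 and kinesin-14 motors had ranges on either side of the median of all genes. Kif13a, an endosome carrier, ranged from 21.5 to 34.9 CPM over the 11 clusters young and from 19.5 to 41.6 CPM aged, lowest in cluster 9 and highest in cluster 6 in both, a 1.62-fold and a 2.13-fold range. Kif1c ranged from 13.8 to 21.1 CPM and from 13.9 to 24.6 CPM, 1.52-fold and 1.76-fold. Kifc3, a minus-end-directed motor, ranged from 11.7 to 27.1 CPM and from 16.0 to 23.1 CPM, 2.33-fold and 1.45-fold, and was highest in cluster 3 in both. Kif13b and Kif16b, also kinesin-3 motors of endosomes and vesicles, were under 10 CPM in each library, with 203 and 338 young UMIs and 211 and 332 aged UMIs. Kif17, a homodimeric kinesin-2, and Kifc2 were rarer still, at 31 and 32 young and 56 and 17 aged UMIs.

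Among the other kinesins, Kif2a, a depolymerase of interphase and spindle microtubules, was highest in cluster 1, at 143 CPM young and 148 CPM aged, and lowest in cluster 9, at 86.7 and 99.4 CPM. Kif21b, a motor that regulates microtubule growth, was highest in cluster 12, the cluster with stress response genes, at 77.2 against 41.1 CPM in other young cells and 82.6 against 47.5 CPM in other aged cells. These were 1.88-fold (1.54 to 2.27) and 1.74-fold (1.52 to 1.98) differences. Its relative Kif21a was highest in cluster 10, at 18.6 and 11.5 CPM. Kif24, which acts at the mother centriole against cilium formation, was highest in cluster 1 at 8.51 and 7.18 CPM and had no UMI in young cluster 12. Kif7, a regulator of Gli proteins in the cilium, was under 10 CPM in each cluster and both libraries, as was Kif26a. Kif1bp, which binds and blocks several kinesins including Kif15 and Kif18a, ranged from 30.1 to 55.1 CPM young and from 32.5 to 46.0 CPM aged, lowest in cluster 8 and highest in cluster 6 in both.

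Between the ages, kinesin levels were close, and the largest relative differences lay among transport and other kinesins. No motor of the 25 with at least 10 CPM in either library was 1.5-fold apart, where 1.03% of 8331 genes were higher and 0.840% lower in the aged library. Mitotic kinesins summed to 732 CPM young and 760 CPM aged, a ratio of 1.04 (1.02 to 1.05), with 8 higher and 4 lower, where 55.4% of all compared genes were higher. In cells thinned to 5000 UMIs the ratio was 1.01 (0.977 to 1.04), an interval that spans 1. As a mean of cells it was also 1.01, a measure without a counting interval. Transport kinesins summed to 1024 and 1099 CPM, a ratio of 1.07 (1.06 to 1.08), with 7 higher and 3 lower of 10. The other kinesins gave 180 and 193 CPM, also 1.07 (1.05 to 1.10). Median log2 differences were 0.05 for mitotic and 0.09 for transport kinesins and 0.02 for all genes compared. In sums over a library, more cells of a state and more transcript per cell cannot be told apart, and neither can age and the single library made at each age.

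The libraries differed in makeup, and its part in the mitotic and transport ratios over all cells was not tested. Cluster 5 held 8.22% of young and 10.6% of aged cells, cluster 11 6.10% and 4.35%, and cluster 12 2.57% and 5.33%. Cluster 4 held 11.2% of young and 7.51% of aged cells, and cluster 8 held 8.75% and 5.97%. Within cluster 5 the mitotic kinesins summed to 1929 CPM young and 1941 CPM aged, a ratio of 1.01 (0.983 to 1.03). The highest ratios within clusters with at least 10 compared mitotic kinesins were 1.12 in cluster 8 (1.07 to 1.17), where 12 of 12 were higher in the aged library beside 45.8% of all compared genes, and 1.10 in cluster 11 (1.06 to 1.14), where 9 of 12 were higher and 3 lower, beside 47.0% of all compared genes lower. The lowest was 0.957 in cluster 2 (0.912 to 1.004), where 8 of 11 were lower beside 46.7% of all compared genes. The kinesin-free G2/M list moved the same way in each of these clusters. It went from 4860 CPM young to 5383 CPM aged in cluster 8 and from 12098 to 13173 CPM in cluster 11. In cluster 2 it went from 8401 to 8093 CPM. These ratios are thus not particular to kinesins, and the part of G2/M content in them was not tested.

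Kinesin-3 was the transport family with the largest ratio, at 351 CPM young and 416 CPM aged, 1.18 (1.16 to 1.21). Kif1b made up most of that sum. It was at 230 CPM young and 281 CPM aged, a ratio of 1.22 (1.19 to 1.25). The aged level was higher in 11 of 12 clusters, with the interval above 1 in 9 of them, from 1.11 in cluster 6 to 1.34 in cluster 10 among those 9. In cluster 12 alone it was not, at 274 CPM young and 271 CPM aged. Kif1a was at 66.1 and 75.5 CPM, 1.14 (1.10 to 1.19), and higher in 9 of 12 clusters, with the interval above 1 in 3. With clusters weighing the same, the Kif1a ratio was 1.06. Kif13a was at 27.8 and 32.0 CPM, 1.15 (1.08 to 1.23), also higher in 9 of 12, but 1.03 (0.883 to 1.20) in thinned cells. Kif1c was at 18.0 and 19.2 CPM, with an interval (0.977 to 1.16) that spans 1.

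The kinesin-1 and kinesin-2 sums were nearer to 1, at 1.01 (0.998 to 1.03) and 1.03 (0.997 to 1.06). Kif5b was at 499 CPM young and 504 CPM aged, 1.01 (0.994 to 1.03). Kif5c was at 8.80 and 10.8 CPM, 1.23 (1.09 to 1.38), but higher in only 7 of 12 clusters. Kif3a was at 83.3 and 89.4 CPM, 1.07 (1.03 to 1.12), higher in 7 of 12 clusters with the interval above 1 in 1, and at 1.02 with clusters weighing the same. Kif3b was at 27.4 and 24.8 CPM, 0.905 (0.843 to 0.971), lower in 9 of 12 clusters with the interval below 1 in 2. Kif3c was at 32.7 and 32.5 CPM.

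The related motors Kif21a and Kif21b had ratios on opposite sides of 1. Kif21b was at 42.0 CPM young and 49.2 CPM aged, 1.17 (1.11 to 1.24), higher in 10 of 12 clusters with the interval above 1 in 5, and 1.11 (0.979 to 1.25) in thinned cells. Kif21a was at 11.8 and 9.34 CPM, 0.791 (0.706 to 0.885), lower in 10 of 12 clusters with the interval below 1 in 5. Kif2a was at 116 and 125 CPM, 1.08 (1.04 to 1.12).

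Among mitotic kinesins, ratios over all kept cells ran from 0.928 for Kifc1 to 1.08 for Kif14. Kif11 was at 147 CPM young and 157 CPM aged, 1.07 (1.04 to 1.10), and higher in 7 of 12 clusters, but 1.0 (0.931 to 1.07) in thinned cells. Kifc1 was at 31.8 and 29.5 CPM (0.869 to 0.991) and lower in 10 of 12 clusters. Its near-identical copy Kifc5b held 414 young and 447 aged UMIs, out of 58954611 and 60303420 in kept cells. No interval was computed for Kifc5b, and the ratio of Kifc1 is uncertain because of this copy. Kif20a (37.1 and 36.3 CPM) and Kif2c (47.3 and 47.1 CPM) had intervals that span 1, as did Kif15, Kif22, Kif18b and Kif14.

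**Figure D5:**
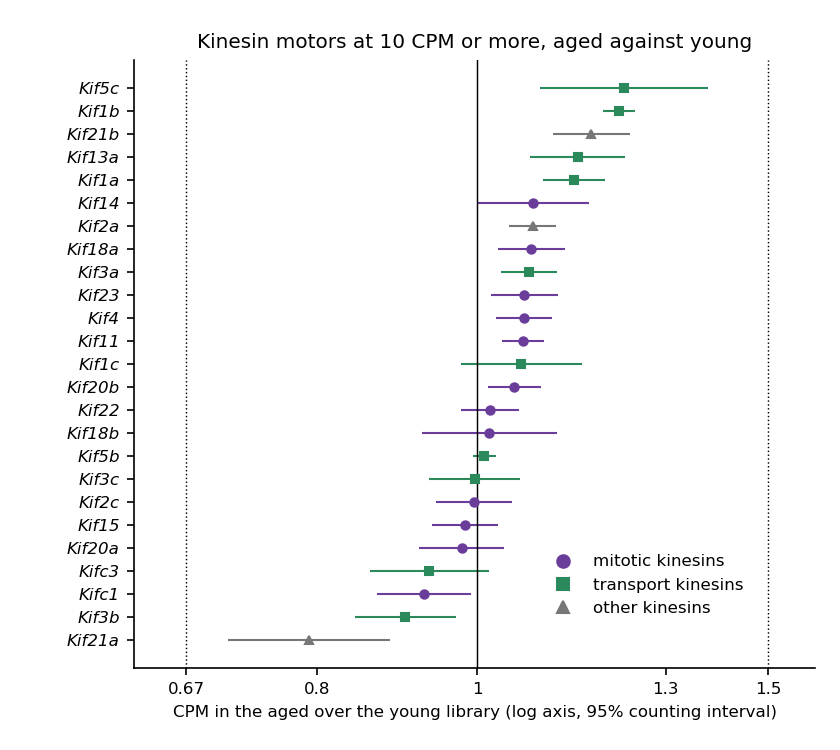
Ratio of CPM in the aged over the young library (log axis) with 95% counting intervals for the 25 motors at 10 CPM or more in either library; dotted lines mark 1.5-fold either way. All lie within the dotted lines, with Kif5c (1.23) and Kif1b (1.22) highest and Kif21a (0.791) lowest.

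Some partner genes differed by age as well. Birc5, the survivin subunit of the Aurora B complex, was at 272 CPM young and 240 CPM aged, 0.883 (0.864 to 0.904), and lower in 11 of 12 clusters. Aurka was at 59.2 and 54.1 CPM, 0.913 (0.870 to 0.958), and Prc1 at 279 and 304 CPM, 1.09 (1.07 to 1.11). Of the transport partners, Mapk8ip3, an adaptor between kinesin-1 and dynein, was at 28.0 and 34.5 CPM, 1.24 (1.16 to 1.32), higher in 11 of 12 clusters. Of dynein, the intermediate chain Dync1i2 was at 120 and 149 CPM, 1.24 (1.21 to 1.28), higher in 12 of 12 clusters, and the light chain Dynll1 was at 881 and 792 CPM, 0.899 (0.888 to 0.910), lower in 11 of 12. By list, 11 of 16 mitotic partners, 7 of 11 transport partners and 11 of 20 dynein and dynactin genes were higher in the aged library, beside 4614 of 8331 genes in all.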

How the data were processed

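UMI counts per gene and barcode were deposited by the authors for 2 libraries, 1 young and 1 aged. Per the submitters' processing notes they were made with Cell Ranger 3.0.2 on the mouse build mm10; which annotation they used is not stated in these sources. Each library pools 5 mice and is 1 sample, so no p-value is given. The members and all gene lists were chosen with earlier results of these data known. Every member is named; partner genes with the largest ratios were taken from each list.

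Barcodes with at least 1000 genes and at most 10% mitochondrial UMIs were kept, and Scrublet calls (expected rate 0.06) removed. Counts were summed per library and cluster and scaled to CPM. Ratios carry exact conditional binomial intervals, levels exact Poisson and shares Clopper-Pearson ones; each is a 95% interval that covers counting error alone. Log2 differences use a pseudocount of 1 CPM. A fold was counted among genes with at least 10 CPM on either side, at 1.5 by age and 2 between a cluster and the other cells. Clustering used 2000 variable genes without the 94 kinesin, partner and dynein symbols, 30 principal components, 20 neighbours and Leiden resolution 1 (scanpy 1.11.5, leidenalg 0.10.2), with no integration. Scripts ran in Python 3.11.15 and were tested on simulated data. Gene positions are from GENCODE on the same build. Of the members, 12 overlap another gene model on the same strand there, so their counts may be split. Alternatives covered the mitochondrial limit, depth, scaling, filters, pseudocount, fold rule, doublet calls and clustering, and, chosen after the data were seen, the removal of cluster 7.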

Additional observations from a re-analysis of the deposited data

Results flagged for a closer look

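For 2 gene lists the aged over young ratio of the summed CPM pointed opposite ways in different clusters, with intervals on either side of 1. The difference between clusters was not tested, and the intervals cover counting error only. Partners of mitotic kinesins were higher in the aged library in cluster 8, at 1.10 (1.07 to 1.13), and lower in cluster 4, at 0.924 (0.896 to 0.954). Dynein and dynactin genes were higher in cluster 11, at 1.06 (1.03 to 1.09), and lower in cluster 12, at 0.959 (0.924 to 0.996). No outlier check was possible with 1 library per age.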

How the results depend on the processing

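Alternatives were run for the mitotic and transport lists, by age and in the G2/M cluster, and for the count of motors apart by age. Single genes rerun by age were Kif1b, Kif21a, Kif21b, Kif5c, Kif13a, Kif1a, Kif2a, Kif11 and Kifc1. Kif1b was also rerun in the G2/M cluster. Other cluster contrasts, ratios within clusters, and partner and dynein genes were not part of these runs. Among the values rerun, no called value changed direction. Of the summary values, 124 stayed within their interval or within 1.5 times the count and 19 moved. Of the values of single genes and medians, 201 stayed and 20 moved. The aged over young ratio of the mitotic kinesins (1.04) was 1.06 with the mitochondrial limit at 20%, 1.01 in thinned cells, 1.01 as a mean of cells, 1.02 with median-of-ratios scaling and 1.07 over all barcodes. That of the transport kinesins (1.07) was 1.05 as a mean of cells, 1.06 with median-of-ratios scaling and 1.04 with clusters weighing the same. With no filter on low values, 2 motors were 1.5-fold apart by age, Kif17 and Kifc2. The fold of the mitotic kinesins in the G2/M cluster was 4.09 young and 3.96 aged at the 20% limit, 3.63 and 3.85 in thinned cells and 3.56 and 3.77 as a mean of cells. It was 3.49 young in the highest of the 10 bins and 3.38 aged without mitochondrial and ribosomal protein genes. The transport kinesins in the young G2/M cluster were 1.17-fold in thinned cells, and 1 of them passed 2-fold with no filter. The cause was not tested. No paired analysis was possible because each age has 1 library and the labels carry no replicate numbers. Depth limits the motors under 10 CPM, whose counts allow no firm ratio.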
